A study of Mus musculus with 2 samples.

Results

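Rods and cones, the photoreceptors of the retina, arise from the same dividing progenitors, and the 8 genes described here are regulators of that choice. They are *Crx*, *Prdm1*, *Lhx4*, *Nrl*, *Nr2e3*, *Rxrg*, *Thrb* and *Sall3*. They were taken by their symbols from a list chosen with earlier results of these data known, and all 8 were among the 32285 genes counted. Single cells of mouse eyes at embryonic day E17.5 were counted in 1 pooled library from *Myrf* humWT/humWT mice and 1 from *Myrf* humdG/humdG mice, called the humWT and the humdG library here. *Myrf* encodes a membrane-bound transcription factor of the retinal pigment epithelium (RPE), and in both groups its last mouse exon had been replaced by the human one in all cells of the body. The humdG allele also carried a frameshift variant at the C-terminus, and homozygous humdG mice did not survive to birth. According to the labels 3 eye cups without the cornea were pooled for each library, whereas the study's text describes 3 mice per genotype with the cornea left on, and the protocol in the labels is written for conditional KO mice. With 1 library per genotype the libraries could be described but no difference between genotypes could be tested, and each interval in brackets is a 95% interval for counting error alone.

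Photoreceptor fate is set in steps. OTX2 in cells that leave the cell cycle turns on *Crx* and *Prdm1*, and the pair NRL and NR2E3 then turns on rod genes and holds cone genes down. Without NRL, cells destined to be rods become cones. The nuclear receptors THRB and RXRG and the zinc-finger protein SALL3 act in cones, where they bear on the choice of opsin. In the mouse most cones are born before birth and most rods around and after it, so E17.5 eyes hold cones and the first rods.

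The promoters of *Crx*, *Thrb*, *Nrl* and *Nr2e3* are shown because these genes stand for the shared, the cone and the rod step, and because OTX2 and CRX bind the core TAATCC, which reads GGATTA on the other strand. Each sequence, from RefSeq on GRCm38.p6, runs from 250 bases before to 50 bases after a start that RefSeq lists, 5′ to 3′ along the gene, and capitals mark GGATTA. The regions are chr7:15879906-15880205 (minus strand) for *Crx*, chr14:17660710-17661009 (plus strand) for 1 of the 2 listed starts of *Thrb*, chr14:55524203-55524502 (minus strand) for *Nrl* and chr9:59950030-59950329 (minus strand) for *Nr2e3*.
Crx: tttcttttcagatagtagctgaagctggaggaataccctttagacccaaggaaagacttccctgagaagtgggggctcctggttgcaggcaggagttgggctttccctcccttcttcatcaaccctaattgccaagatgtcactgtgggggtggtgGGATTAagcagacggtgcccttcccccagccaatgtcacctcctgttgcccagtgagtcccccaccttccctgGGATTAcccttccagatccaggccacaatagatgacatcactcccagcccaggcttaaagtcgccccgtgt
Thrb: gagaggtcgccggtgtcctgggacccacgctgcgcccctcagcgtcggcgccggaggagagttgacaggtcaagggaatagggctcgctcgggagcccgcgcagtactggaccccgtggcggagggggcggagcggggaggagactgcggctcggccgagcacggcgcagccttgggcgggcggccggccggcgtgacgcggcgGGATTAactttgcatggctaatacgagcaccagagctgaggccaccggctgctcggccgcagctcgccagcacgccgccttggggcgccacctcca
Nrl: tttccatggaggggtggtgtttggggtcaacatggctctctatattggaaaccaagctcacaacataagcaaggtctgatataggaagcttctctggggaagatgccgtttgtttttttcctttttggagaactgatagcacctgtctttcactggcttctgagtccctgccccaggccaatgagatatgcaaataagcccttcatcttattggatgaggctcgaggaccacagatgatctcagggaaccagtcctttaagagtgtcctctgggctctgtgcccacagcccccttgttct
Nr2e3: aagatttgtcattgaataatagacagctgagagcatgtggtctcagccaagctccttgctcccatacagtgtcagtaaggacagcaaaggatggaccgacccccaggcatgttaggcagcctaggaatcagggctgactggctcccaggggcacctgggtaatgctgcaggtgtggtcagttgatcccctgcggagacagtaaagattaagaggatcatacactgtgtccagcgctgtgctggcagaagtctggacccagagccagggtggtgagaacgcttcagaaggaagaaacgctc

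The *Crx* promoter held the letters at 94 and 21 bases before the start, and that of *Thrb* held them at 46 bases before it. The letters were not in the window at the other start of *Thrb* (chr14:17981394-17981693), nor in those of *Nrl*, *Nr2e3*, *Prdm1*, *Lhx4* and *Rxrg*. Of 32851 mouse promoter windows of the same 300 bases, 7.06% held the core on either strand and 0.36% held it at least 2 times, as that of *Crx* did. AGGTCA, the half-site that nuclear receptors such as THRB and RXRG bind, was found at 184 bases before this start of *Thrb* and at 88 bases before 1 start of *Rxrg*, beside 16.26% of all windows. The 2 motifs do not overlap. Promoter windows are described for 7 of the 8 genes, and that of *Sall3* is not reported here.

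On GRCm38 the gene bodies lie at chr7:15865947-15879968 (*Crx*, minus strand), chr10:44437177-44528501 (*Prdm1*, minus), chr1:155698031-155751684 (*Lhx4*, minus), chr14:55518978-55524981 (*Nrl*, minus), chr9:59942771-59960659 (*Nr2e3*, minus), chr1:167598384-167639623 (*Rxrg*, plus) and chr14:17660261-18038090 (*Thrb*, plus). These bodies come from GENCODE, whose outermost starts differ from the RefSeq starts above, and the body of *Sall3* is not reported here. The windows printed for *Thrb*, *Nrl* and *Nr2e3* therefore lie inside the bodies. So do those of *Prdm1* and *Lhx4*, the other window of *Thrb* and the *Rxrg* window that held AGGTCA. A pair of counted genes overlaps *Nr2e3*, *Gm7616* on the opposite strand with 12 UMIs in humWT and 4 in humdG photoreceptor precursor-like cells, and *Gm15507* with 0 in both. *Gm48321* lies opposite *Thrb* and had 163 and 292 UMIs there. UMIs were counted per gene, so the isoforms of *Thrb* were counted together.

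A unique molecular identifier (UMI) marks each captured transcript, so that amplified copies are counted once. The humWT library held 129135207 UMIs in 17421 barcodes and the humdG library 114319529 UMIs in 19565 barcodes, of which 16166 and 18173 passed the filters, with medians of 3785 and 2625 UMIs per cell. The libraries shared 102 barcode sequences. The 8 genes were left out of the genes used for clustering. Of 23 clusters 5 stayed unnamed under the marker rule, among them the largest, with 3342 humWT and 7583 humdG cells and medians of only 2275 and 1653 UMIs.

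Cells called photoreceptor precursor-like made up 627 of the 16166 humWT cells (3.88%, 3.59 to 4.19) and 840 of the 18173 humdG cells (4.62%, 4.32 to 4.94). Of the 12 fixed markers of photoreceptor precursors 9 were raised in this cluster, *Otx2*, *Neurod1*, *Aipl1*, *Gngt2*, *Gnb3*, *Mpp4*, *Rbp3*, *Impg2* and *Opn1sw*. The name was given by these same markers, so they are no separate evidence for it. The cluster also raised 3 neurogenic and 2 amacrine and horizontal markers. Its cells had medians of 4574 humWT and 5300.5 humdG UMIs. A few barcodes were far deeper. Those over 20000 UMIs were 44 of the humWT cells and held 35.9% of the UMIs of the class, and were 22 of the humdG cells and held 11.4%. A barcode of that depth may hold more than 1 cell, which was not tested, and the ratios of the 8 genes, the rod target list and the overlap of rod and cone regulators are given with and without them.

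Levels are given as CPM, the UMIs of a gene per 1000000 UMIs of all genes, summed over the cells of a class. All 8 genes were at their highest in photoreceptor precursor-like cells among the named classes in both libraries, and each time the interval lay above that of the class in second place. *Crx*, the cone-rod homeobox gene that activates photoreceptor genes, was at 219 CPM (207 to 232) in humWT and 269.6 CPM (256 to 284) in humdG cells of this class. Neurogenic-like cells, which are leaving the cell cycle, came second in humWT at 43.0 CPM (36.1 to 50.7). *Prdm1* encodes BLIMP1, a repressor that keeps new photoreceptors from becoming bipolar cells. It was at 496 CPM (477 to 515) in humWT and 603 CPM (583 to 624) in humdG photoreceptor precursor-like cells, and at 169 and 132 CPM in neurogenic-like cells. Outside the retina *Prdm1* was also counted in blood vessel-like cells, at 35.9 CPM in humWT and 53.0 CPM in humdG. *Lhx4*, a LIM-homeodomain gene of developing cones and bipolar cells, stood at 74.7 CPM (67.4 to 82.5) in humWT and 102 CPM (93.8 to 111) in humdG photoreceptor precursor-like cells, and at 7.78 and 7.76 CPM in neurogenic-like cells.

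The rod genes were counted above background in photoreceptor precursor-like cells and in no other named class. *Nrl*, which encodes the leucine zipper factor needed for the rod fate, was at 98.3 CPM (89.9 to 107) in humWT and 65.8 CPM (59.2 to 72.9) in humdG photoreceptor precursor-like cells. Its next highest humWT class, cartilage-like cells, stood at 7.44 CPM. *Nr2e3*, the nuclear receptor that NRL turns on and that holds cone genes down, was at 188 CPM (176 to 200) in humWT and 52.6 CPM (46.8 to 59.0) in humdG photoreceptor precursor-like cells. Red blood cell-like cells served as the background, a measure of free RNA. There *Nrl* stood at 4.13 CPM in humWT and 4.59 CPM in humdG, and *Nr2e3* at 3.67 and 1.84 CPM, and no other class had an interval wholly above that of red blood cell-like cells for either gene in either library.

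The cone genes were found in more classes. *Rxrg*, the retinoid X receptor that holds back short-wave opsin in cones, was at 56.2 CPM (49.98 to 63.1) in humWT and 74.0 CPM (67.0 to 81.5) in humdG photoreceptor precursor-like cells, and at 25.3 and 23.0 CPM in neural crest and glia-like cells. *Thrb*, the thyroid hormone receptor that sets medium-wave opsin in cones, was at 285 CPM (271 to 300) in humWT and 385 CPM (369 to 401) in humdG photoreceptor precursor-like cells. It was at 61.4 and 75.8 CPM in surface epithelium-like cells, above the 5.97 and 25.7 CPM of red blood cell-like cells, and its interval lay above theirs in 8 classes of humWT and 4 of humdG. *Sall3*, a zinc-finger gene of cones and horizontal cells, stood at 27.1 CPM (22.8 to 31.9) in humWT and 26.0 CPM (22.0 to 30.6) in humdG photoreceptor precursor-like cells, and at 12.1 and 7.25 CPM in amacrine and horizontal-like cells, where its interval lay above that of red blood cell-like cells in humWT and overlapped it in humdG. That last cluster also raised markers of retinal ganglion cells, 7 beside 11 of its own.

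**Figure D1:**
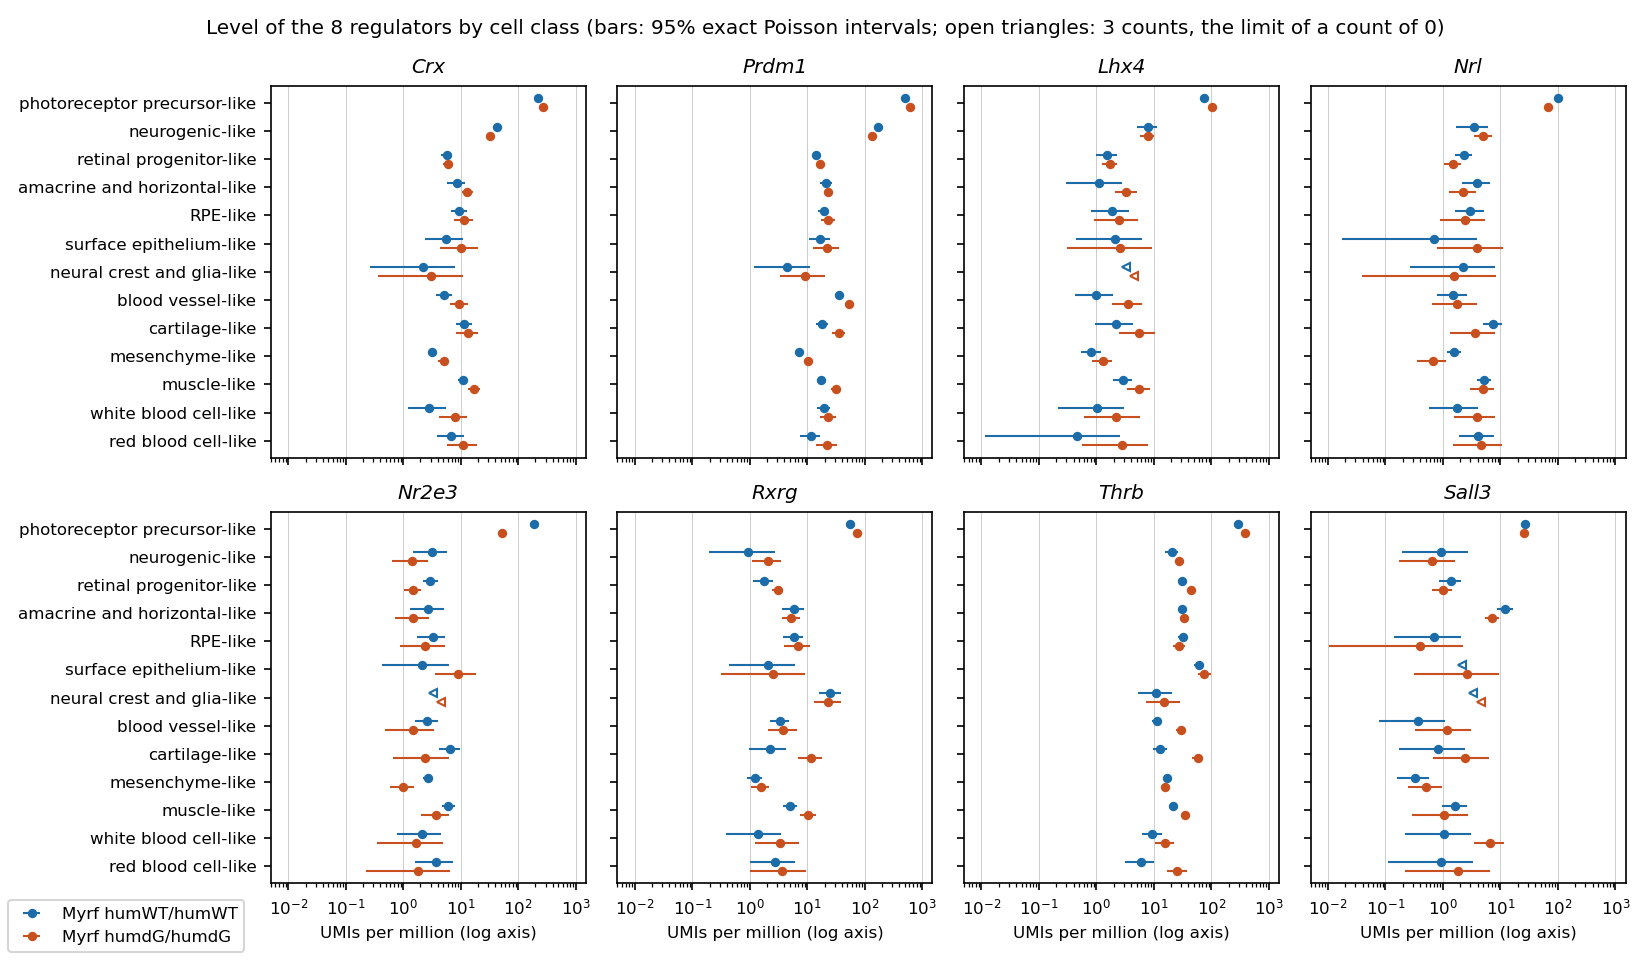
Level of each of the 8 genes (CPM, logarithmic axis) in each named cell class except melanocyte-like cells, in the humWT and the humdG library. Points show the summed UMIs, bars the 95% Poisson interval and open triangles the limit of 3 counts where no UMI was found. For every gene the photoreceptor precursor-like points lie to the right of all other classes shown in both libraries, and *Rxrg*, *Thrb* and *Prdm1* also show a class outside the retina above the red blood cell-like level.

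The class held from 33.8% (*Thrb*) to 64.4% (*Nr2e3*) of all UMIs of a gene in humWT and from 27.7% (*Thrb*) to 52.6% (*Nr2e3*) in humdG. Unnamed clusters held from 15.3% to 23.5% in humWT and from 26.4% to 41.1% in humdG. For every gene the share in the class was lower in humdG than in humWT and that in unnamed clusters higher, beside the larger number of humdG cells in the unnamed cluster of low depth. For *Nrl*, *Rxrg* and *Sall3* the intervals of the share in the class overlapped between the libraries.

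Between the libraries, photoreceptor precursor-like cells differed most in the rod genes. *Nr2e3* was lower in humdG, with 295 UMIs beside 979 in humWT, a log2 ratio of humdG to humWT of −1.84 (−2.03 to −1.65) or 0.280 times the humWT level. *Nrl* was lower as well, with 369 UMIs beside 512, a log2 ratio of −0.58 (−0.78 to −0.38). The other genes were higher in humdG or about level. The log2 ratio was 0.30 (0.19 to 0.41) for *Crx*, with 1143 humWT and 1512 humdG UMIs. *Prdm1* had 2583 and 3384 UMIs and a log2 ratio of 0.28 (0.21 to 0.36). These are the regulators shared by rods and cones, and *Lhx4* stood with them at 0.45 (0.26 to 0.64) from 389 and 572 UMIs. Of the cone genes, *Thrb* had a log2 ratio of 0.43 (0.34 to 0.53) from 1486 and 2158 UMIs. *Rxrg* had one of 0.40 (0.18 to 0.62) from 293 and 415 UMIs. *Sall3*, with 141 and 146 UMIs, had a log2 ratio of −0.06, and its interval of −0.40 to 0.29 includes no difference. All these ratios are of UMIs summed over the class. A rod regulator (*Nrl* or *Nr2e3*) was found in 36.5% of its humWT and 26.7% of its humdG cells. A difference in level per cell and one in which cells the class holds cannot be told apart here. The ratios also depended on how the libraries were joined. When they were merged without integration, the log2 ratio was −0.14 for *Crx* and −0.076 for *Prdm1*, so that their direction turned. It was 0.064 for *Lhx4*, 0.087 for *Rxrg* and 0.39 for *Thrb*, and −1.30 for *Nrl* and −2.49 for *Nr2e3*.

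Against all genes these ratios were mostly modest. Of the 13608 genes with at least 20 UMIs in the class, 6.42% were at least 1.5-fold higher in humdG and 10.7% at least 1.5-fold lower. None of the 8 genes was that much higher and 1, *Nr2e3*, was that much lower, a count near the share of all genes, and *Nrl* at 0.669 times lay just inside, so that in 7 of the alternatives tried it was past the limit as well. The median log2 ratio of the 8 genes was 0.29 with 5 above 0, beside a median of 0.02 and quartiles of −0.22 and 0.23 for all genes. The *Nr2e3* ratio itself lay at the edge of all genes of like or higher count, a comparison chosen after its value was seen. Of the 1205 other genes with at least as many UMIs in the class, 0 had a lower ratio than *Nr2e3*. Of 1897 such genes 40 had a lower ratio than *Nrl*, and of 321 such genes 10 had a higher ratio than *Thrb*.

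**Figure D2:**
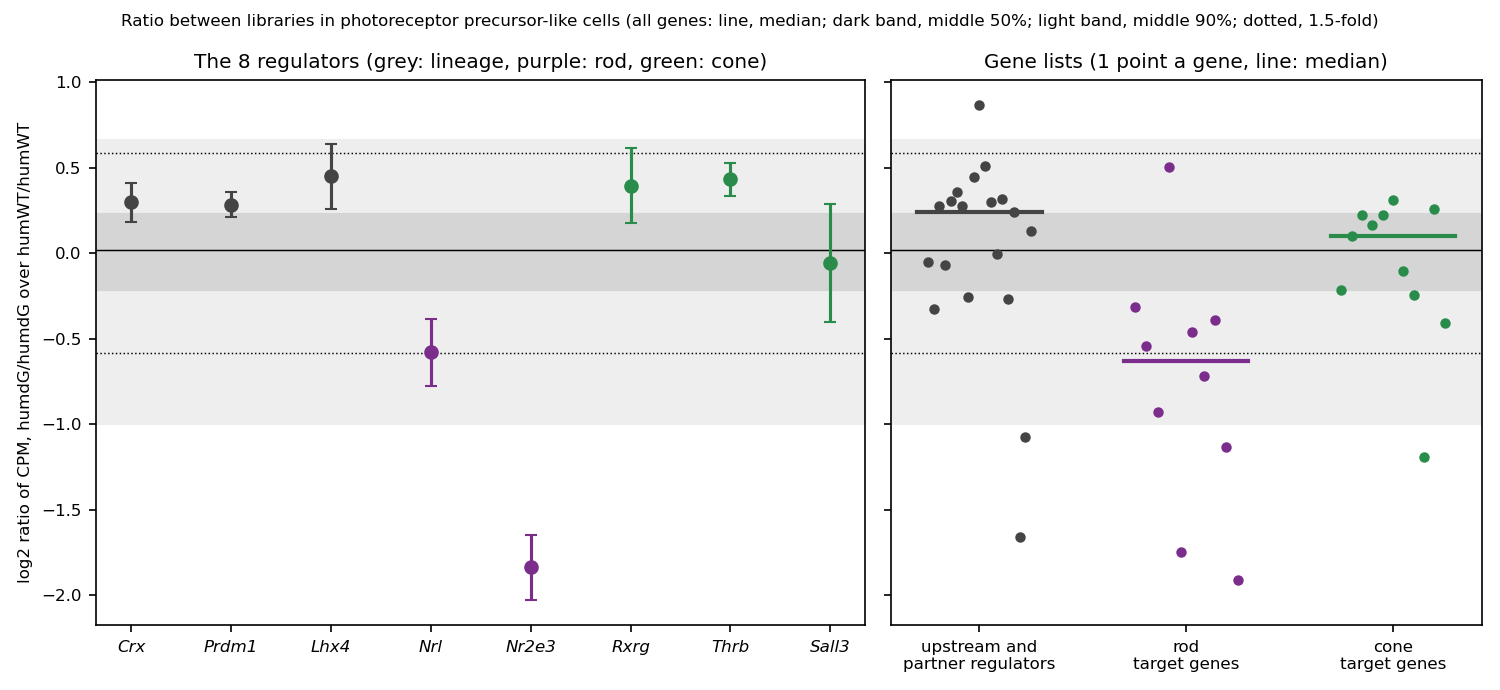
Log2 ratio of CPM, humdG over humWT, in photoreceptor precursor-like cells for the 8 genes (left, bars for the 95% counting interval) and for each gene of the 3 fixed lists (right, line at the list's median), over bands for the middle 50% and 90% of all genes with at least 20 UMIs and dotted lines at 1.5-fold. *Nr2e3* at −1.84 and *Nrl* at −0.58 lie below 0, *Crx*, *Prdm1*, *Lhx4*, *Rxrg* and *Thrb* lie between 0.28 and 0.45, and the bar of *Sall3* crosses 0.

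A few barcodes carried much of the *Nr2e3* count. The 10 barcodes with the most *Nr2e3* UMIs held 30.03% of them in humWT and 38.6% in humdG, with up to 41 and 18 UMIs in a single barcode. Without those 10 the level was 144 CPM in humWT and 33.0 CPM in humdG, a log2 ratio of −2.13. The mean of CPM over cells, in which each cell counts alike, was 171 and 55.9 CPM. Without the barcodes over 20000 UMIs the level was 196 CPM in humWT and 53.9 CPM in humdG, a log2 ratio of −1.87. The log2 ratio of *Nrl* was then −0.57. Those of *Crx*, *Lhx4* and *Rxrg* were 0.24, 0.42 and 0.40, while that of *Thrb* was 0.31, that of *Prdm1* 0.11 and that of *Sall3* 0.13.

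The share of cells with at least 1 UMI was lower in humdG for the rod genes and higher for *Thrb*, *Crx* and *Prdm1*. *Nr2e3* was found in 25.04% of humWT and 11.2% of humdG photoreceptor precursor-like cells, and *Nrl* in 26.6% and 21.8%. To set cells of unlike depth side by side, each was thinned to 2000 UMIs, which kept 618 humWT and 769 humdG cells and left out 9 and 71. The thinned shares were 17.6% (14.7 to 20.9) and 5.72% (4.19 to 7.61) for *Nr2e3*, and 13.4% and 9.23% for *Nrl*. *Thrb* was found in 44.8% and 55.2% of cells, or 30.1% and 41.0% after thinning. *Crx* was found in 60.6% and 68.3%, or 32.0% and 41.2% after thinning, and *Prdm1* in 78.8% and 80.7%, or 59.1% and 65.0%. Both shared regulators were thus in a larger share of humdG cells at equal depth, but for *Prdm1* the thinned intervals overlapped (55.1 to 63.0 and 61.5 to 68.4). The intervals of *Nrl* overlapped as well, at full depth and after thinning (10.8 to 16.4 and 7.28 to 11.5). *Lhx4* was in 31.4% and 39.3% of cells, or 13.1% and 16.8% after thinning. *Rxrg* was in 26.2% and 29.3%, or 10.4% and 12.7%, and *Sall3* in 12.8% and 11.9%, or 4.53% and 5.33%. Red blood cell-like cells, with medians of 4217 and 4214 UMIs, had a UMI of a given gene in 0.213% to 5.12% of 469 humWT cells and in 0.837% to 8.37% of 239 humdG cells, the highest being *Prdm1* in humWT and *Thrb* in humdG.

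The rod genes were found in the same cells above the level of independent detection, and with *Thrb* below it. Among thinned humWT cells with *Nrl*, 39 of 83 (47.0%, 35.9 to 58.3) also had *Nr2e3*, which was in 17.6% of all. Only 7 of those 83 (8.43%, 3.46 to 16.6) had *Thrb*, which was in 30.1% of all. In humdG cells 17 of 71 with *Nrl* (23.9%, 14.6 to 35.5) had *Nr2e3*, beside 5.72% of all, and 20 of 71 (28.2%, 18.1 to 40.1) had *Thrb*, beside 41.0% of all. The odds ratio, which is 1 where the genes are found independently of each other, was 5.89 in humWT and 7.82 in humdG for *Nrl* with *Nr2e3*. It was 0.18 and 0.54 for *Nrl* with *Thrb*, and 0.34 and 0.21 for *Nr2e3* with *Thrb*.

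Of the cone genes, *Thrb* had odds ratios above 1 with both others. *Rxrg* and *Thrb* were both found in 27 humWT and 54 humdG cells after thinning, with odds ratios of 1.81 and 1.93, and *Thrb* and *Sall3* in 14 and 26 cells, with odds ratios of 2.43 and 2.63. *Thrb* was in 42.2% (29.9 to 55.2) of humWT cells with *Rxrg*, an interval that includes the 30.1% of all cells. In humdG cells with *Rxrg* it was in 55.1% (44.7 to 65.2), beside 41.0% of all. *Rxrg* and *Sall3* were both found in only 2 and 7 cells, with odds ratios of 0.66 and 1.44. *Rxrg* and *Nrl* were both found in 8 and 12 cells, with odds ratios of 0.91 and 1.45. *Rxrg* was in 9.64% (4.25 to 18.1) of humWT and 16.9% (9.05 to 27.7) of humdG cells with *Nrl*. Both intervals include its share of all cells, 10.4% and 12.7%. *Crx*, which acts in both lineages, was with *Nrl* at odds ratios of 2.49 and 1.84 and with *Thrb* at 1.13 and 0.78. Cells of 1 library are not replicates, so these ratios describe the libraries. At full depth a median of 3 of the 8 genes was found per cell in both libraries, and none in 5.58% of humWT and 5.48% of humdG cells of the class. After thinning the median was 2 in both, and none was found in 15.9% of humWT and 9.62% of humdG cells.

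**Figure D3:**
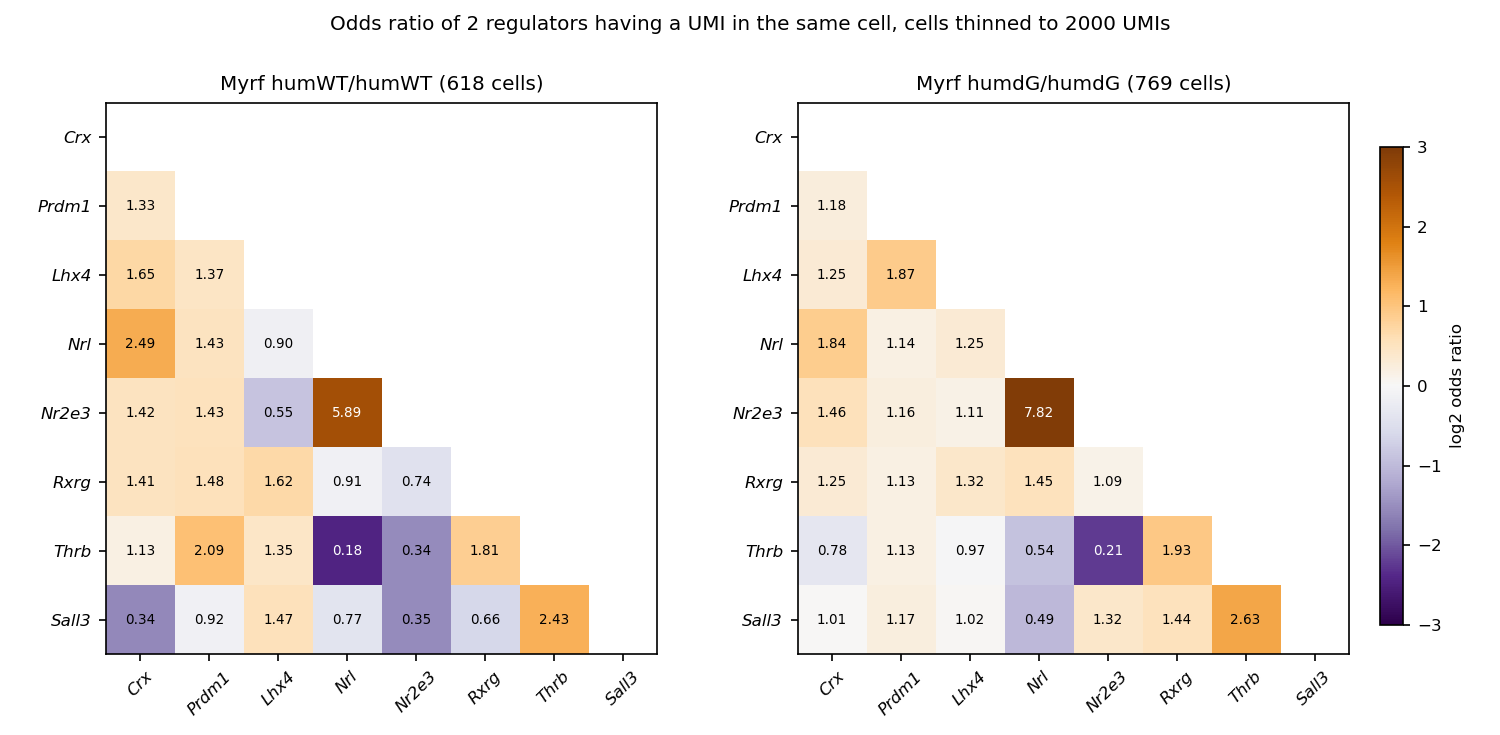
Odds ratio of finding both genes of a pair in the same photoreceptor precursor-like cell after thinning to 2000 UMIs, for the humWT and the humdG library, with colour on a log2 scale. *Nrl* with *Nr2e3* (5.89 and 7.82) is far above 1 in both libraries, and *Nrl* or *Nr2e3* with *Thrb* (0.18 to 0.54) are below 1.

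By their regulators, cells of the class fall into sets. A rod regulator (*Nrl* or *Nr2e3*) was found in 229 of 627 humWT cells (36.5%) and 224 of 840 humdG cells (26.7%), and a cone regulator (*Rxrg* or *Thrb*) in 337 (53.7%) and 529 (63.0%). Both kinds were in 119 and 145 cells and neither in 180 and 232. *Nr2e3* was in 157 humWT and 94 humdG cells and *Nrl* in 167 and 183, so the rod set differs in make-up between the libraries. Of cells with a rod regulator, 52.0% (45.3 to 58.6) in humWT and 64.7% (58.1 to 71.0) in humdG also had a cone regulator. The humWT cells with both had a median of 9573 UMIs, beside 4857 for rod regulators alone and 4308.5 for cone regulators alone. In humdG the medians were 7571, 7438 and 5162 UMIs, so that there the cells with both were hardly deeper than those with rod regulators alone. After thinning the shares were 20.9% (14.8 to 28.2) and 35.7% (26.3 to 46.0), from 32 of 153 and 35 of 98 cells. Without the barcodes over 20000 UMIs they were 45.4% and 63.8%, from 89 of 196 and 136 of 213 cells. In the other direction, 35.3% (30.2 to 40.7) of humWT and 27.4% (23.6 to 31.4) of humdG cells with a cone regulator also had a rod regulator, or 14.3% and 9.75% after thinning. The overlap was thus larger in humdG as a share of the rod set and smaller as a share of the cone set, at full depth and after thinning. The intervals of the libraries overlapped in both directions at full depth and after thinning. For the shares without the barcodes over 20000 UMIs no interval is given, so no overlap is stated for them. Among all cells of the class, a cone regulator was also found more often in humdG and a rod regulator less often.

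The sets differed in genes that did not define them, though not always as the name of a gene's list says. *Rom1*, a rim protein of the rod outer segment, was at 377 CPM (334 to 425) in humWT cells with rod regulators alone, 224 CPM in cells with both and 36.2 CPM (26.9 to 47.5) in cells with cone regulators alone. In humdG it was at 297 CPM (255 to 346), 237 CPM and 40.7 CPM (33.2 to 49.3). The order was thus the same in both libraries. *Cngb3*, a subunit of the cone channel gated by cyclic GMP, had the opposite order, at 519, 991 and 1533 CPM in humWT and 797, 983 and 1415 CPM in humdG. *Opn1sw*, the short-wave cone opsin, was at 99.3, 287 and 488 CPM in humWT and at 26.1, 131 and 173 CPM in humdG. Of the cells with both, 30 of 119 in humWT and 9 of 145 in humdG were over 20000 UMIs. Set levels are not given without such barcodes, and their part in the middle levels of the cells with both was not tested. *Sag*, the arrestin of rods, was at 61.5 CPM (44.7 to 82.6) in humWT and 8.70 CPM (2.82 to 20.3) in humdG cells with rod regulators alone, from 44 and 5 UMIs. Over the whole class *Sag* was at 44.9 and 11.9 CPM, so its humdG level with rod regulators alone was not above that of the class. *Fabp7*, a fatty acid-binding protein placed on the cone list, was highest with rod regulators alone, at 2770 CPM beside 730 CPM with cone regulators alone in humWT, and at 3287 beside 1432 CPM in humdG. *Gngt2* was likewise higher with rod regulators alone, at 2058 beside 1597 CPM in humWT and 2534 beside 2138 CPM in humdG. Among rod targets, 2 named after their values were seen were higher with cone regulators alone. *Gngt1*, a transducin subunit of rods, was at 43.3 CPM with rod and 161 CPM with cone regulators alone in humWT, and at 26.1 and 129.6 CPM in humdG. *Pde6g*, a phosphodiesterase subunit of rods, was at 47.5 and 113 CPM in humWT and at 10.4 and 77.0 CPM in humdG.

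**Figure D4:**
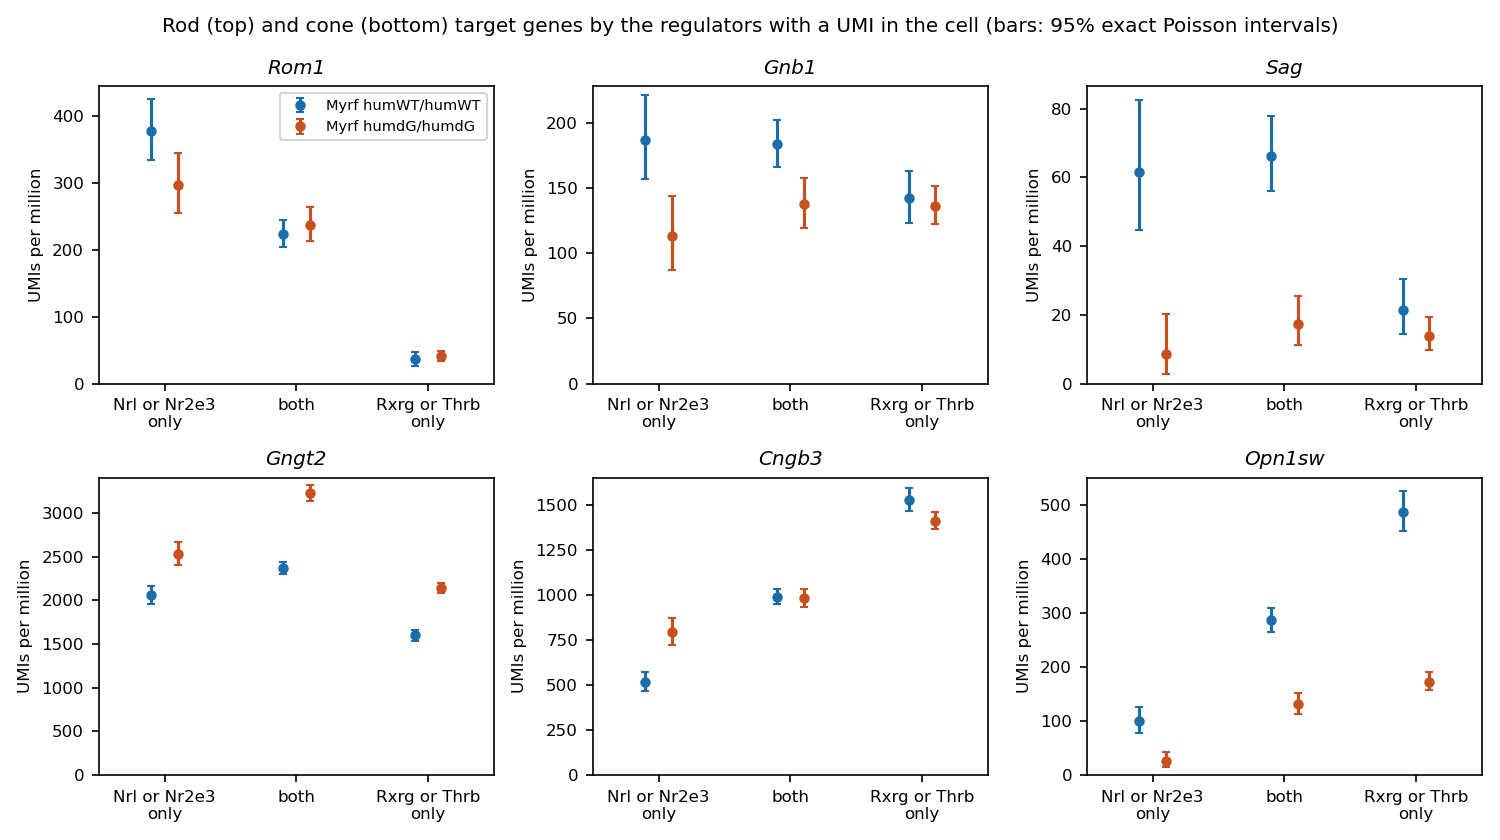
Level (CPM) of 3 rod target genes (top) and 3 cone target genes (bottom) in photoreceptor precursor-like cells with rod regulators alone, cone regulators alone or both, in the humWT and the humdG library, with bars for the 95% Poisson interval. *Rom1* is lowest and *Cngb3* highest in cells with cone regulators alone in both libraries. In cells with rod regulators alone *Sag* is at 8.70 CPM in humdG, from few UMIs, and at 61.5 CPM in humWT. The sets are defined by the UMIs found, and the make-up of the rod set differs between the libraries.

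Genes up- and downstream of the 8 were read from fixed lists, which were chosen with earlier results of these data known. Some of them, such as *Otx2*, *Neurod1*, *Gngt2*, *Opn1sw* and *Pde6b*, were also markers of the class, so their level there is a description. Of 20 upstream and partner regulators 19 had at least 20 UMIs in the class, 1 was at least 1.5-fold higher in humdG and 2 lower, counts near the 6.42% and 10.7% of all genes, with a median log2 ratio of 0.24 beside 0.02 for all genes. *Rorb*, a nuclear receptor needed for rods, was at 1750 CPM in humWT and 2066 CPM in humdG (0.24 on the log2 scale). *Neurod1*, a proneural factor of photoreceptors, was at 798 and 1022 CPM (0.36). The gene past the limit upward was *Onecut1*, a factor of horizontal cells and early cones, at 0.87 (0.64 to 1.10). *Samd11* was lower, at 49.5 CPM in humWT and 15.7 CPM in humdG, a log2 ratio of −1.66 (−2.02 to −1.30), as was *Samd7*, named after its values were seen, at −1.08 (−1.51 to −0.65). Both encode proteins of a repressor complex in rods.

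Of 16 rod target genes 10 passed the same count limit, and of these 0 were at least 1.5-fold higher in humdG and 5 lower, beside 6.42% and 10.7% of all genes, with a median log2 ratio of −0.63. *Sag* was at 44.9 CPM in humWT and 11.9 CPM in humdG, a log2 ratio of −1.91 (−2.32 to −1.51). *Rom1* was at 167 and 127 CPM (−0.39, −0.54 to −0.25) and *Gnb1*, a transducin subunit, at 168 and 135 CPM (−0.32, −0.46 to −0.18). The other 4 past the limit, named after their values were seen, were *Pde6b* at −1.75, *Rp1* at −1.14, *Mef2c* at −0.93 and *Reep6* at −0.72. The interval was −3.11 to −0.56 for *Pde6b* and −1.69 to 0.22 for *Reep6*. *Pde6b* had 25 humWT and 8 humdG UMIs and *Reep6* 26 and 17, so each passed the count limit through humWT alone. *Nr1d1*, the 1 gene of the 10 above 0, had 17 and 26 UMIs and an interval of −0.43 to 1.48. Without the barcodes over 20000 UMIs the median of the list was −0.72 with 5 genes past the limit.

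Of 14 cone target genes 11 passed the count limit, with 0 at least 1.5-fold higher in humdG, 1 lower, again near the 6.42% and 10.7% of all genes, and a median log2 ratio of 0.10. *Gngt2*, a transducin subunit of cones, was at 1780 CPM in humWT and 2211 CPM in humdG (0.31, 0.27 to 0.35). *Fabp7* was at 1796 and 2094 CPM (0.22) and *Cngb3* at 1027 and 1099 CPM (0.10). *Opn1sw* stood apart at 275 and 120 CPM (−1.19, −1.33 to −1.06).

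Finer clustering at a resolution of 1.0 gave 2 photoreceptor precursor-like clusters, a larger one of 541 humWT and 685 humdG cells and a smaller one of 96 and 181 cells. Only 85 humWT and 154 humdG cells of the smaller cluster were in the class described above. *Rbp3*, *Impg2*, *Cdhr1* and *Pdc* led the smaller one, whose medians of 2987.5 and 2284 UMIs were below the 5169 and 6762 UMIs of the larger. In the larger cluster *Nr2e3* was at 193 CPM (181 to 205) in humWT and 51.7 CPM (45.7 to 58.2) in humdG. In the smaller it was at 107 CPM (73.6 to 150) and 74.2 CPM (52.0 to 103), with overlapping intervals, from 33 and 36 UMIs. *Nrl* was lower in humdG in both, at 99.3 and 67.5 CPM in the larger and at 77.8 CPM (49.9 to 116) and 39.2 CPM (23.6 to 61.1) in the smaller, where the intervals again overlapped. *Thrb* was higher in humdG in both, at 288 and 387 CPM in the larger and 201 and 286 CPM in the smaller, and *Crx* was at 224 and 272 CPM and at 139 and 218 CPM. The intervals of *Thrb* and *Crx* overlapped in the smaller cluster as well. *Rxrg* was at 56.9 and 76.2 CPM in the larger and at 45.4 CPM (24.8 to 76.2) and 35.0 CPM (20.4 to 56.1) in the smaller.

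**Figure D5:**
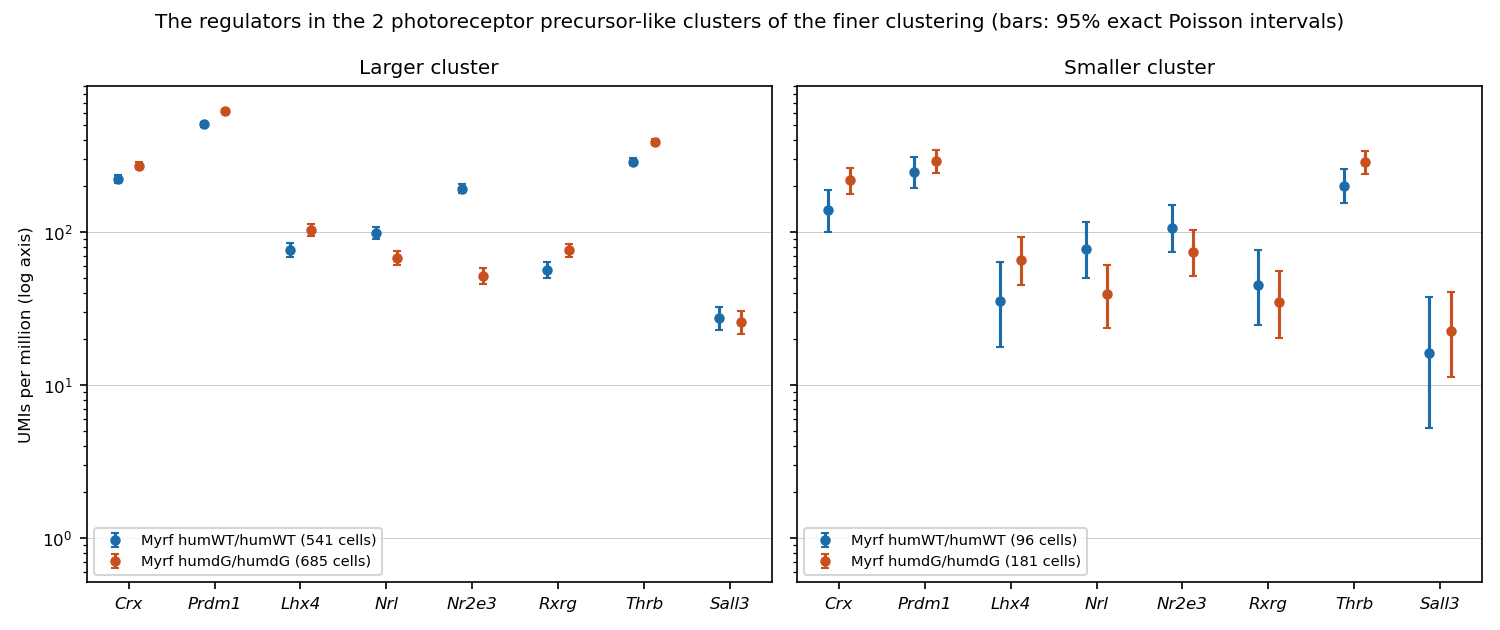
Level of each of the 8 genes (CPM, logarithmic axis) in the larger and the smaller photoreceptor precursor-like cluster found at a resolution of 1.0, in the humWT and the humdG library, with bars for the 95% Poisson interval. The *Nr2e3* intervals of the libraries are far apart in the larger cluster (193 and 51.7 CPM) and overlap in the smaller (107 and 74.2 CPM).

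In neurogenic-like cells *Crx* and *Prdm1* stood the other way. *Crx* was at 43.0 CPM in humWT and 32.8 CPM in humdG there, a log2 ratio of −0.39 (−0.71 to −0.07). *Prdm1* was at 169 and 132 CPM there, a log2 ratio of −0.35 (−0.51 to −0.19), so both were lower in humdG in neurogenic-like cells and higher in photoreceptor precursor-like cells of the integrated clustering, a contrast that was not tested. In retinal progenitor-like cells the log2 ratios of *Crx* and *Prdm1* were 0.06 (−0.33 to 0.45) and 0.20 (−0.03 to 0.44), whose intervals include no difference. *Thrb* was at 31.0 and 44.4 CPM in retinal progenitor-like cells, a log2 ratio of 0.52 (0.36 to 0.67). The red blood cell-like level of *Thrb* was also higher in humdG, at 25.7 beside 5.97 CPM, and the part of free RNA in the progenitor values was not tested. *Nr2e3* in retinal progenitor-like cells was at 2.97 and 1.48 CPM, near its red blood cell-like levels of 3.67 and 1.84 CPM. In amacrine and horizontal-like cells *Sall3* was at 12.1 and 7.25 CPM, a log2 ratio of −0.74 (−1.36 to −0.11). At a resolution of 1.0 *Sall3* had 42 humWT and 47 humdG UMIs, at 19.3 and 11.9 CPM, in a cluster named retinal ganglion cell-like. That cluster also raised 8 amacrine and horizontal markers. Its humWT interval for *Sall3*, 13.9 to 26.1 CPM, overlapped the 23.0 to 32.5 CPM of the larger photoreceptor precursor-like cluster at that resolution. Of the clusters named amacrine and horizontal-like at that resolution, 1 had 2 humWT and 1 humdG UMIs of *Sall3* and another had 0 in both.

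Unnamed clusters held further UMIs of these genes. A cluster of 257 humWT and 205 humdG cells, with 4 raised photoreceptor and 6 raised amacrine and horizontal markers and medians of 12924 and 11052 UMIs, had *Crx* at 43.2 and 102 CPM, *Prdm1* at 125 and 296 CPM and *Thrb* at 153 and 363 CPM. *Nr2e3* was lower in humdG there too, at 20.8 and 7.79 CPM, while *Nrl* was at 7.16 and 7.29 CPM. The humdG interval of *Thrb* in this cluster, 348 to 379 CPM, overlapped that of the photoreceptor precursor-like class, 369 to 401 CPM. In the large cluster of low depth *Crx* was at 18.7 and 39.5 CPM, *Thrb* at 23.2 and 61.0 CPM and *Nr2e3* at 11.1 and 5.75 CPM. In clusters without a name, as in the photoreceptor precursor-like class, a difference in level and a difference in which cells they hold cannot be told apart.

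The genes whose levels followed each of the 8 most closely were read over 42 points, the 21 clusters of at least 50 cells in each library, by Pearson's r of log levels among 13957 genes. The points share libraries and differ in depth. *Crx* was closest to *Lhx4* (0.95), *Gnb3* (0.93) and *Chrnb4* (0.93), and *Lhx4* to *Gnb3* (0.95), *Crx* (0.95) and *Kif19a* (0.94). *Prdm1* was closest to *Crx* (0.93), *Lhx4* (0.92) and *Igsf21* (0.92). *Nrl* was closest to *Pdc* (0.90), *Gngt1* (0.88) and *Rbp3* (0.87). *Nr2e3* was closest to *Opn1sw* (0.90), *Fabp12* (0.87) and *Prph2* (0.86). *Rxrg* was closest to *Ubap1l* (0.92), *Cngb3* (0.92) and *Gnat2* (0.91), of which *Cngb3* and *Gnat2* act in cone phototransduction. *Thrb* was closest to *Kcnj3* (0.91), *Gulo* (0.91) and *Gm48321* (0.89), the gene opposite it, and *Sall3* to *Snap25*, *Cadm2* and *Chgb* (0.85 each).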

How the data were processed

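The deposited files hold raw UMI counts per gene and barcode, made by the authors with Cell Ranger 7.1.0 on mm10 per the submitters' processing notes, which also list Seurat 4.1.1. They were not normalized. Whether reads in introns were counted is not given in the sources used here. The files hold more barcodes than the number of cells that the study states.

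Kept barcodes had over 500 genes and a mitochondrial UMI share under 15%, and the 5% with the highest Scrublet doublet score (scanpy 1.11.5) were removed from each library, a fixed share and not a measured one. Cells were clustered with Seurat 5.3.0 in R 4.3.3, with 2000 variable genes without the 8 genes described, canonical correlation integration over 20 dimensions and a resolution of 0.5. A cluster was named where at least 3 fixed markers were raised at least 2-fold, after 10 CPM were added, in at least 10% of its cells, with 1 among the 20 leading genes. UMIs were summed per class and library, with exact Poisson intervals for levels, Clopper-Pearson intervals for shares and conditional binomial intervals for ratios, each at 95%, in Python 3.11.15 with pandas 2.3.3, numpy 2.4.6 and scipy 1.17.1. PCR copies were removed by UMI, and the intervals cover counting error only. Ratios need at least 20 UMIs in both libraries together.

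Beside the 8 genes, the text names for each the 3 genes of highest Pearson correlation of log2(CPM + 1) among genes with at least 500 UMIs, and from each list up to 4 genes of most UMIs or largest ratio. The genes, lists and markers were chosen with earlier results of these data known. The ratio, its interval and the fold limit were tested on simulated counts, and thinning was checked to keep the share of UMIs of each gene. Clustering, naming and co-detection were not tested in this way. Gene positions were taken from GENCODE M21 on GRCm38. Alternatives changed the gene minimum, the mitochondrial limit, doublet removal, resolution, integration, the genes clustered, the class rule, depth and scaling. Those on deep barcodes, mean CPM and leading barcodes were chosen after seeing the data.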

Additional observations from a re-analysis of the deposited data

How the results depend on the processing

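No paired analysis was possible because each genotype has 1 library and no test was made. Over 13 alternatives the log2 ratio of *Nr2e3* ranged from −2.49 to −1.57, that of *Nrl* from −1.30 to −0.45 and that of *Thrb* from 0.31 to 0.55. In libraries merged without integration the log2 ratios of *Crx* and *Prdm1* changed direction to −0.14 and −0.076, the median of the 8 genes was −0.11 in place of 0.29, and the shares of photoreceptor precursor-like cells were 4.44% in humWT and 5.61% in humdG. The cause was not tested. The median kept its direction in the other 12. Genes past 1.5-fold numbered 2, *Nrl* being the further one, at a resolution of 1.0, in merged libraries, with the 8 genes allowed in the clustering, under the marker gate, with the red blood cell-like level subtracted, scaled to the median gene, and without the 10 leading barcodes of each gene. The shares of photoreceptor precursor-like cells were 7.40% and 12.0% under the marker gate, which asks only for a UMI of 3 markers and so takes cells of other clusters, and 4.26% and 6.84% among cells of at least 2000 UMIs. The share of cone regulator cells with a rod regulator was 22.3% in humdG under the gate. Without the barcodes over 20000 UMIs it was 29.9% in humWT and 26.7% in humdG. Thinning to 2000 UMIs lowered the co-detection shares to 20.9% (cone in rod regulator cells) and 14.3% (rod in cone regulator cells) in humWT and to 35.7% and 9.75% in humdG. The log2 ratio of *Sall3*, with the fewest UMIs of the 8, ranged from −0.42 in merged libraries to 0.13 without the barcodes over 20000 UMIs. In merged libraries those of *Lhx4* and *Rxrg* were 0.064 and 0.087. With 1 library per genotype, differences between litters, dissections or preparations cannot be told apart from those between genotypes.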
